A study of Mus musculus with 9 samples.

Results

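The 10 genes described here encode enzymes and a transporter of antioxidant defense, most of them known targets of the transcription factor NRF2. They were Nqo1, Gclc, Gclm, Srxn1, Txnrd1, Slc7a11, Gsr, Sod2, Sod3 and Gpx3, chosen by gene symbol out of 18349 genes listed for each library. All 10 were listed and all 10 passed the filter on low counts, as did 15010 genes in all. Iris RNA was sequenced in 9 libraries, 3 in each of 3 groups of C57BL/6J-background mice, and each library pooled 3 irises. Corneal alkali injury (CAI) was made at 6 weeks of age with 0.5 µL of 1 M NaOH held on the cornea for 60 seconds, and Sham mice were given PBS instead. The Sham VEGFR3fl/fl and injured VEGFR3fl/fl groups carried floxed VEGFR3 without Cre. The injured VEGFR3iLECko group also carried floxed VEGFR3, with a tamoxifen-inducible Cre under the promoter of Prox1, a gene of lymphatic endothelial cells. Tamoxifen at 80 mg/kg was given from day 13 to day 17 after injury, to the VEGFR3fl/fl littermates as well, and irises were collected at 10 weeks of age. The deletion was thus aimed at lymphatic endothelium, whereas the RNA came from all cells of irises trimmed at the outer edge to about 3 mm across, in which fewer cells of a type and less RNA per cell cannot be told apart.

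NRF2, encoded by Nfe2l2, is held in the cytoplasm by KEAP1 and degraded. Oxidants and electrophiles modify KEAP1, and NRF2 then enters the nucleus, pairs with small MAF proteins and binds antioxidant response elements (AREs), which BACH1 can occupy as a repressor. Its targets make glutathione, reduce oxidized glutathione and thioredoxin, and detoxify quinones. Superoxide dismutases and glutathione peroxidases remove superoxide and peroxides and are only in part under NRF2. In the anterior eye these systems are known for handling light and inflammatory oxidants.

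ARE-like letters were looked for in the promoters, since the genes are grouped as NRF2 targets. RefSeq promoter windows (build GRCm38.p6, from 250 bases before to 50 bases after the start site) were found for 7 of the 10 genes, in 9 windows. Windows for Gclc, Gsr and Sod3 were not analysed here. The ARE core TGACNNNGC, read on both strands, was in 1 window each of 3 genes, Gclm, Srxn1 and Txnrd1, among the 9 windows. It was in 12.4% of all 32851 windows. Txnrd1 had more than 1 window and so more places for a match. The AP-1 site TGANTCA was in the window of Srxn1 alone among these genes and in 7.81% of all windows. The letters TGANTCAGC, which join an AP-1 site to the end of the ARE core, were also in the Srxn1 window and in 1.19% of all windows, and overlapped the second AP-1 site of that window. Positions are counted from the start site of the transcript each window belongs to, as base 0. The matched stretches are shown on the strand of the gene, with the match in capitals. ARE core letters are shown because NRF2 sites are recognized by them. The AP-1 site alone is not an ARE and is shown beside them.
Gclm, ARE core at -134, chr3:122245412-122245441, plus strand: cgctcccgggcGCACCGTCAactctcacga
Srxn1, AP-1 site at -102, chr2:152105410-152105439, plus strand: cctcggagggccTGAGTCAccacgctgtgc
Srxn1, joined motif at -45, chr2:152105468-152105497, plus strand: caaattcacccTGAGTCAGCggccgggcgc
Srxn1, ARE core at 28, chr2:152105541-152105570, plus strand: ggcagtgggcaGCTAGGTCAgagtgagaca
Txnrd1, ARE core at -92 of its second window, chr10:82859103-82859132, plus strand: actggatttttGCTTTGTCAttctgacacg
The 3 ARE core matches lay on the minus strand and so read in reverse here. A match describes letters only, and the windows of Nqo1, Slc7a11, Sod2 and Gpx3 held none of these motifs. Sites more than 250 bases before the start site were not looked for, so a missing match does not show that a gene lacks an ARE. Annotated exons of the gene itself overlapped the upstream part of the Srxn1 window (2) and of the second Txnrd1 window (1), but not that of Gclm.

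Total counts per library were 16617187 to 18306359. Counts of Flt4, which encodes VEGFR3, were 282, 237 and 265 in Sham, 277, 353 and 400 in injured VEGFR3fl/fl and 478, 370 and 476 in the libraries labelled VEGFR3iLECko, so its whole-gene count was not lower there. Counts over the whole gene do not show whether the floxed part was removed. Summed expression of 4 Y-linked genes was 51.1 to 167 CPM (counts scaled to library size, on the TMM scale of edgeR) in Sham, 151, 136 and 0.804 CPM in injured VEGFR3fl/fl replicates 1 to 3, and 0.736 to 1.11 CPM in the 3 VEGFR3iLECko libraries. Only replicate 3 of the injured VEGFR3fl/fl group was thus as low in Y-linked genes as the VEGFR3iLECko libraries. Genotype and Y-linked level cannot be told apart in the other libraries of these 2 groups. Summed markers of iris tissue, taken from its pigment, muscle and developmental genes, were 5438 to 6557 CPM in Sham and 1630 to 2979 CPM in the 6 injured libraries, and none of them was at 0 in every library.

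The first comparison asked what alkali injury did to these genes in VEGFR3fl/fl irises. A differentially expressed gene (DEG) was one that changed more than 1.5-fold with Padj under 0.05, where Padj is the p-value of edgeR's quasi-likelihood test after Benjamini-Hochberg correction across the tested genes, and SE is the standard error. Among the 10 genes, Gsr, Srxn1 and Gpx3 were upregulated and Nqo1 and Gclc downregulated. These were 3 of 10 upregulated, where 22.1% of all genes tested were, and 2 of 10 downregulated, against 17.5%. With scaling by library size alone, 2783 of all genes were upregulated and 3523 downregulated in place of 3323 and 2630, and among the 10 genes Gsr and Srxn1 were upregulated and Nqo1, Gclc and Slc7a11 downregulated. Both shares were close to those over all genes, 5 of 10 did not pass, and the median log2 fold change was 0.28 beside 0.01 over all genes. The 3 libraries of each group did not overlap for 3 genes that were higher (Gclm, Srxn1 and Gsr) and 4 that were lower (Nqo1, Gclc, Slc7a11 and Sod2) after injury. The corresponding shares of all genes tested were 33.9% and 32.4%.

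**Figure D1:**
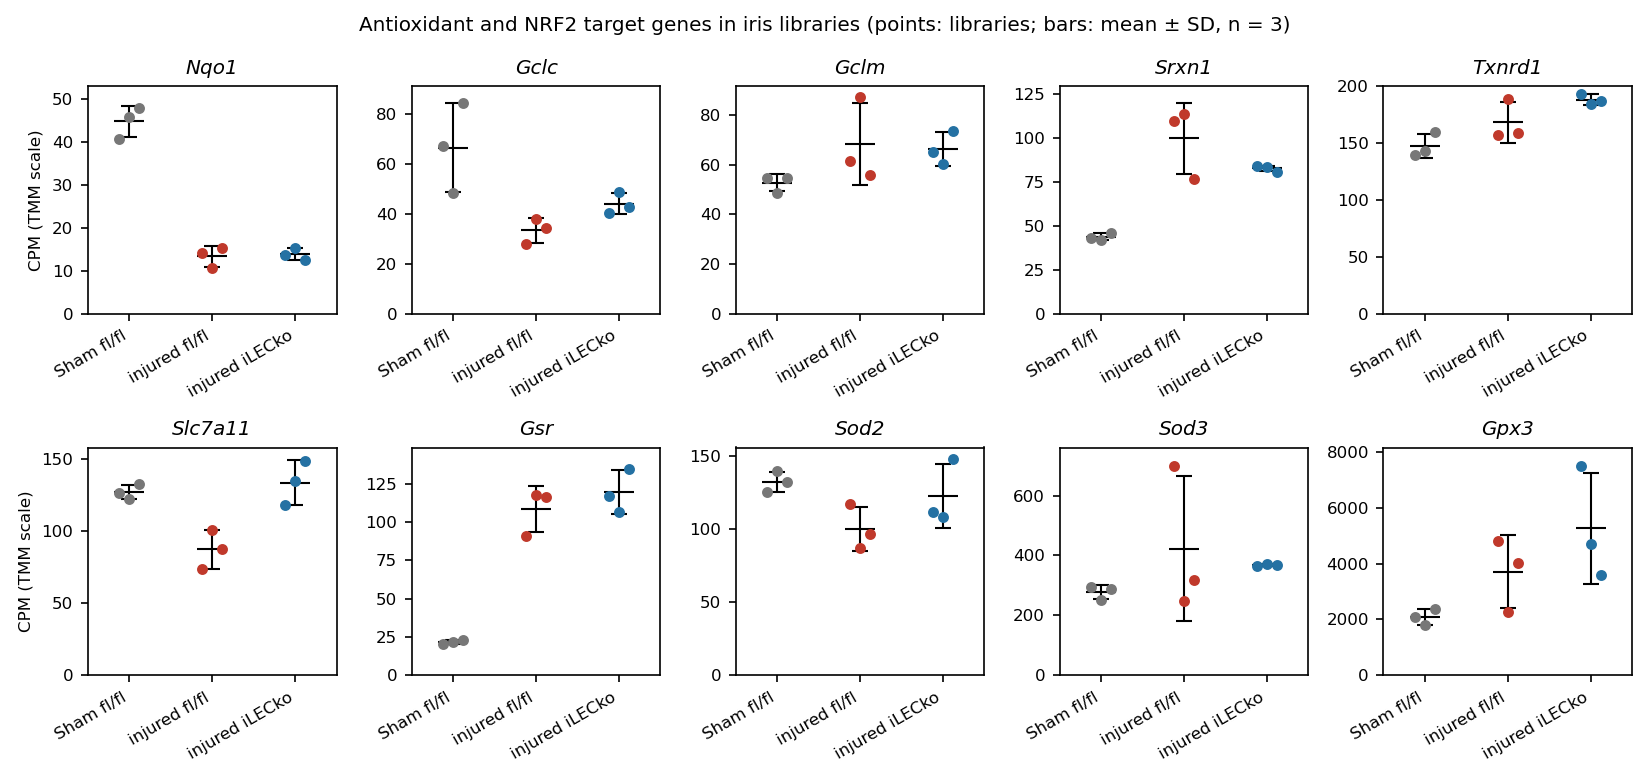
Expression of the 10 genes in each library, as CPM on the TMM scale (vertical axes from 0), in Sham VEGFR3fl/fl (gray), injured VEGFR3fl/fl (red) and injured VEGFR3iLECko (blue) irises, with bars for the mean and SD of 3 libraries. Gsr lay between 20.2 and 22.9 CPM in Sham and above 90 CPM in all 6 injured libraries, whereas Nqo1 lay above 40 CPM in Sham and at 15.3 CPM or less in the injured libraries.

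Gsr (NCBI Gene ID 14782, GRCm38 chr8:33653238-33698162) encodes glutathione reductase, which regenerates reduced glutathione with NADPH. It had 20.2, 21.8 and 22.9 CPM in Sham and 90.9, 117.9 and 116.2 CPM in injured VEGFR3fl/fl replicates 1 to 3. Every injured library was above every Sham library. The log2 fold change was 2.32 (SE 0.13, Padj = 8.59e-07 by edgeR), or 5.01-fold, the largest change among the 10 genes.

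Srxn1 (Gene ID 76650, chr2:152105524-152111376) encodes sulfiredoxin, which repairs overoxidized peroxiredoxins. It had 43.0, 42.1 and 46.0 CPM in Sham and 109.7, 113.6 and 76.7 CPM after injury. Replicate 3 was the lowest injured library and still above the Sham libraries. The log2 fold change was 1.19 (SE 0.13, Padj = 6.10e-05 by edgeR), or 2.29-fold. Txnrd1 (Gene ID 50493, chr10:82833951-82897724), the cytosolic thioredoxin reductase, acts beside these enzymes. It had 139.4, 143.5 and 159.5 CPM in Sham and 157.4, 188.8 and 158.7 CPM after injury, and the groups overlapped. Its log2 fold change was 0.19 (SE 0.09, Padj = 0.0944 by edgeR).

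Nqo1 (Gene ID 18104, chr8:107388225-107403205) encodes a quinone reductase and is widely used as a readout of NRF2. It had 40.7, 45.8 and 47.9 CPM in Sham and 14.1, 10.6 and 15.3 CPM after injury, with no overlap. It fell by 1.75 on the log2 scale (SE 0.14, Padj = 8.39e-06 by edgeR), a 3.36-fold decrease. Gsr and Nqo1 thus changed in opposite directions. Within a library their ratio does not depend on scaling, and this pair was chosen after its values were seen. The Gsr to Nqo1 ratio of counts was 0.497, 0.476 and 0.478 in Sham and 6.43, 11.1 and 7.61 after injury (two-sided exact permutation test, p = 0.1, the smallest that 3 against 3 libraries can give).

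Gclc and Gclm encode the catalytic and modifier subunits of glutamate-cysteine ligase, the first enzyme of glutathione synthesis. Gclc (Gene ID 14629, chr9:77754535-77794489) had 67.0, 48.4 and 84.2 CPM in Sham and 27.98, 37.9 and 34.4 CPM after injury. Its libraries were spread most widely in Sham but did not overlap with the injured ones. It fell by 0.99 on the log2 scale (SE 0.19, Padj = 0.0017 by edgeR). Gclm (Gene ID 14630, chr3:122245487-122267215) had 54.6, 48.8 and 54.9 CPM in Sham and 61.7, 87.2 and 56.0 CPM after injury. The gap between the groups was small, and the log2 fold change was 0.37 (SE 0.16, Padj = 0.0644 by edgeR). The ratio of Gclc to Gclm counts per transcript length, also chosen after the values were seen, was 2.002, 1.62 and 2.51 in Sham and 0.741, 0.710 and 1.00 after injury (two-sided exact permutation test, p = 0.1, the smallest possible). The subunit transcripts therefore stood in a different proportion in every injured library than in any Sham library.

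Slc7a11 (Gene ID 26570, chr3:50364936-50499087) encodes xCT, the light chain of the cystine-glutamate antiporter that supplies cysteine for glutathione. It had 126.4, 122.3 and 132.2 CPM in Sham and 73.8, 100.8 and 87.2 CPM after injury, without overlap. The log2 fold change was -0.54 (SE 0.12, Padj = 0.00396 by edgeR), which passed the p threshold but not the 1.5-fold minimum. It passed both with scaling by library size alone (-0.71) and without injured VEGFR3fl/fl replicate 2 (-0.66).

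**Figure D2:**
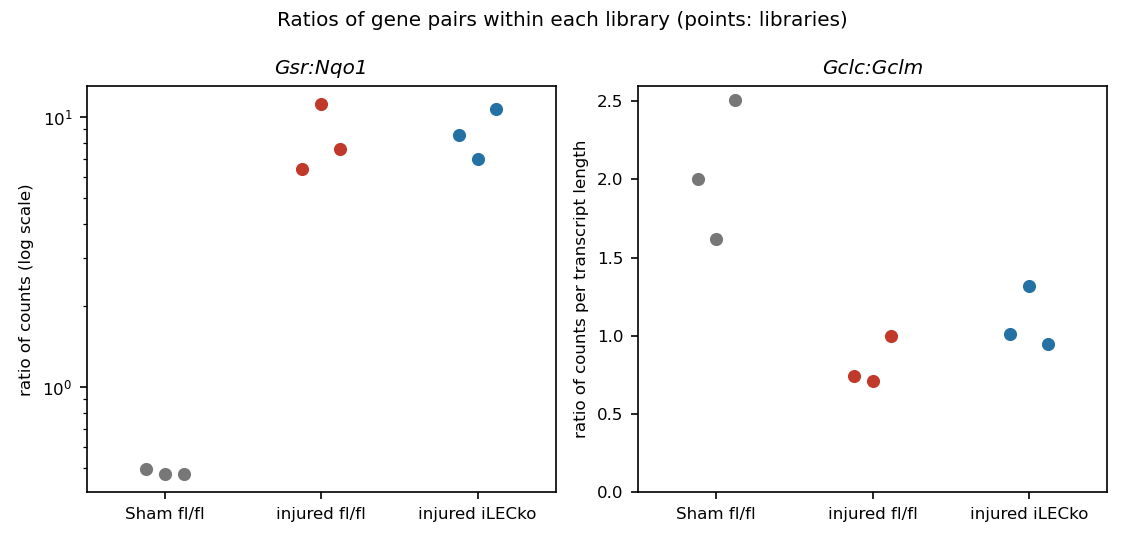
Ratios of 2 gene pairs within each library, as Gsr to Nqo1 counts (left, log axis) and as Gclc to Gclm counts per transcript length (right, linear axis from 0), with a point for each library of the 3 groups. Gsr to Nqo1 was below 0.5 in the 3 Sham libraries and 6.43 to 11.1 in the injured ones, and Gclc to Gclm was 1.62 or more in Sham and 1.32 or less in the injured libraries.

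Neither superoxide dismutase was a DEG. Sod2 (Gene ID 20656, chr17:13007839-13018119), the mitochondrial manganese enzyme, had 125.2, 139.1 and 132.1 CPM in Sham and 116.6, 86.8 and 96.1 CPM after injury, without overlap. Its log2 fold change was -0.40 (SE 0.14, Padj = 0.0326 by edgeR), under the 1.5-fold minimum. Sod3 (Gene ID 20657, chr5:52363804-52369738), the secreted enzyme of the extracellular matrix, had 294.2, 252.4 and 289.2 CPM in Sham and 698.2, 248.0 and 317.9 CPM after injury. Replicate 1 was far above the others and replicate 2 below all Sham libraries, and the log2 fold change of 0.60 (SE 0.32, Padj = 0.132 by edgeR) did not pass. Replicate 1 was also the highest of the 9 libraries for the fibroblast genes Dcn (4818 CPM) and Lum (1929 CPM). These were picked from 7 fibroblast markers, of which Col1a1, Col1a2, Col3a1 and Pdgfra were not at their highest there. The summed fibroblast markers were 22350 CPM in replicate 1 and 22490 CPM in replicate 3. Without replicate 2 the log2 fold change of Sod3 was 0.87 and passed (Padj = 0.0212 by edgeR).

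Gpx3 (Gene ID 14778, chr11:54902854-54910387), the secreted glutathione peroxidase, was the most abundant of the 10. It had 2104, 1806 and 2358 CPM in Sham and 4834, 2264 and 4044 CPM after injury. Injured replicate 2 lay within the Sham range and the other 2 above it. The log2 fold change was 0.83 (SE 0.32, Padj = 0.0468 by edgeR), or 1.78-fold. This call was lost with any Sham library left out (Padj = 0.106, 0.134 and 0.0736 by edgeR without replicates 1, 2 and 3), without injured VEGFR3fl/fl replicate 1 or 3 (0.137 and 0.105), and without VEGFR3iLECko replicate 2 (0.0625), which shares only the estimate of spread.

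Marker transcripts of several cell types changed with injury too. Over all genes tested 22.1% were upregulated and 17.5% downregulated. The summed level of 11 macrophage markers was 542.6 to 560.4 CPM in Sham and 12770 to 21220 CPM in injured VEGFR3fl/fl libraries, and 11 of 11 were upregulated. Most of the injured sums came from 1 marker, Lyz2, with 136.4 to 143.6 CPM in Sham and 9118 to 17620 CPM after injury. Neutrophil markers went from 4.37 to 5.63 CPM in Sham to 167.1 to 541.8 CPM, with 5 of 5 tested upregulated. Fibroblast markers went from 3798 to 4364 CPM in Sham to 15490 to 22490 CPM, with 5 of 7 upregulated. The fibroblast markers that did not pass were Dcn (log2 fold change 0.21) and Pdgfra (0.16). Pigment cell markers were 27470 to 29400 CPM in Sham and 3343 to 5769 CPM after injury, with 6 of 6 downregulated. Smooth muscle markers were 7212 to 9407 CPM in Sham and 1458 to 3056 CPM after injury, with 5 of 6 downregulated. The part of these cell types in the changes of the 10 genes was not tested. Surface epithelium markers, which an iris should lack, were 50.5, 25.4 and 2.65 CPM in Sham replicates 1 to 3 and 3.79 CPM or less in each injured VEGFR3fl/fl library. The 2 ciliary body genes that the study checked summed to 1.43 to 3.64 CPM in these 6 libraries.

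The regulators of the pathway were read next, from a list of 12. For this and the following lists, 22.1% of all genes tested were upregulated after injury and 17.5% downregulated. After injury 4 were upregulated, 0 were downregulated (edgeR; 0 at an unadjusted p under 0.05, and 0 by DESeq2) and 8 did not pass. Nfe2l2 was 94.0 ± 2.40 CPM in Sham and 158.3 ± 11.3 CPM after injury (SD, n = 3), a log2 fold change of 0.75 (SE 0.08, Padj = 4.72e-05 by edgeR). With scaling by library size alone it was 0.58 and under the 1.5-fold minimum. Bach1, its competitor at AREs, had a log2 fold change of 0.86 (SE 0.09) and was upregulated with it. The small MAF partners Maff (log2 fold change 1.30) and Mafk (0.80) were upregulated as well. Keap1 was 63.6 ± 2.23 CPM in Sham and 68.8 ± 6.003 CPM after injury (SD, n = 3), a log2 fold change of 0.11 (Padj = 0.244 by edgeR), and -0.06 with scaling by library size alone. The transcript level of Nfe2l2 does not measure NRF2 protein, which is set mainly by degradation.

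Of 28 other NRF2 targets, 14 were upregulated, 9 downregulated and 5 did not pass, with a median log2 fold change of 0.77. The shares over all genes tested were 22.1% and 17.5%. The leading increases were Hmox1, heme oxygenase (3.72), Akr1b8, an aldo-keto reductase (2.37), and Fth1, the ferritin heavy chain (2.19). Hmox1 had 53.2, 52.6 and 58.5 CPM in Sham and 202.8, 1747 and 219.8 CPM in injured replicates 1 to 3. Replicate 2 was far above the others, and without it the log2 fold change was 1.95 (Padj = 0.00409 by edgeR), still upregulated. The leading decreases were the glutathione transferases Gsta1 (-3.13), Gsta2 (-2.99) and Gstp1 (-1.69). Gsta1 and Gsta2 are near-identical copies, and ferritin has processed copies in the genome, so reads may be split between copies and these values are uncertain.

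**Figure D3:**
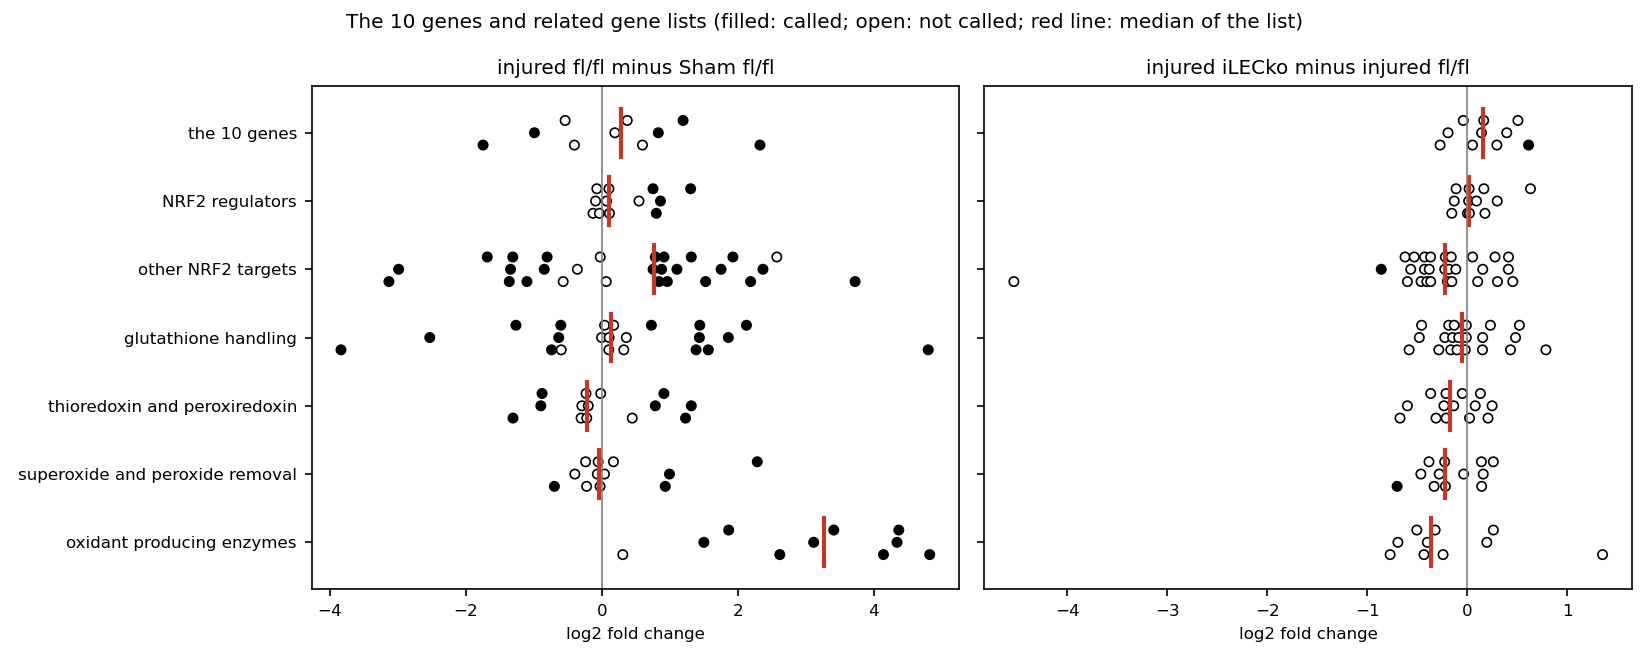
Log2 fold changes of the 10 genes and of the members of 6 related lists (rows), for injury in VEGFR3fl/fl irises (left) and for genotype among injured irises (right), with filled points for DEGs, open points for other genes and red lines at the median of a list. After injury the oxidant producing enzymes lay to the right with a median of 3.26, whereas the 10 genes and the glutathione and thioredoxin lists held filled points on both sides, and in the genotype panel 3 points were filled.

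Of 22 genes of glutathione handling, 8 were upregulated, 6 downregulated and 8 did not pass, with a median of 0.14. Over all genes tested 22.1% were upregulated and 17.5% downregulated. The largest increases were Mgst2, a microsomal transferase (log2 fold change 4.80), Chac1, which degrades glutathione (2.13), and Ggt5, a gamma-glutamyl transferase (1.86). Mgst2 had 1, 4 and 0 counts in Sham and 37, 41 and 65 after injury, a ratio of the sums of 30.03 (95% counting interval 12.6 to 93.9), and its log2 fold change was 6.32 without Sham replicate 2. The largest decreases were Gpx2, an epithelial glutathione peroxidase, Cbs, which makes cystathionine (-2.53), and Ggt1 (-1.26). Gpx2 had 15, 24 and 11 counts in Sham and 1, 0 and 2 after injury, so that Sham was higher by a ratio of 15.9 (95% counting interval 5.13 to 79.6, exact binomial, counting error only). Its fitted log2 fold change was -3.84, and -4.67 without injured replicate 3.

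Of 14 thioredoxin and peroxiredoxin genes, 4 were upregulated, 3 downregulated and 7 did not pass, with a median of -0.21. For this list and the next, the shares over all genes tested were 22.1% upregulated and 17.5% downregulated. Upregulated were Txn1, thioredoxin (1.31), Sesn2, a sestrin (1.23), and Prdx4, the peroxiredoxin of the endoplasmic reticulum (0.91), with Prdx1 (0.79), a cytosolic peroxiredoxin named beyond the set rule. Txn1 and Prdx1 are also among the 28 other targets. Downregulated were Sesn3 (-1.31), Prdx6 (-0.90) and Txnrd3 (-0.88), a thioredoxin-glutathione reductase. Of 12 further genes for removal of superoxide and peroxide, 3 were upregulated, 1 was downregulated and 8 did not pass, with a median of -0.04. They were Msrb1, a methionine sulfoxide reductase (2.28), Cat, catalase (0.99), and Atox1, a copper chaperone (0.93), against Msrb2 (-0.70), whose change was -0.58 and under the 1.5-fold minimum without injured replicate 2.

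Enzymes that make oxidants had the highest median of the 6 related lists. Of 13 listed, 10 were tested and 9 were upregulated, 0 downregulated (edgeR; 0 at an unadjusted p under 0.05, and 0 by DESeq2) and 1 did not pass, with a median of 3.26. Over all genes tested 22.1% were upregulated and 17.5% downregulated. Nox1, Duox2 and Mpo were too low to be tested. The leading genes were Ncf4 (4.82), Rac2 (4.37) and Ncf1 (4.34), parts of the phagocyte NADPH oxidase, which is carried by macrophages and neutrophils. The marker sums of these cells rose in the same libraries, as given above, and their part in these changes was not tested.

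The second comparison asked how the 10 genes differed between injured irises with the label VEGFR3iLECko and injured VEGFR3fl/fl irises. Slc7a11 was upregulated, and none of the 10 was downregulated (0 by edgeR, 0 at an unadjusted p under 0.05 and 0 by DESeq2). These were 1 of 10 upregulated, beside 0.573% of all genes tested, and 0 of 10 downregulated, beside 0.466%. Of all 15010 genes tested, 3674 had an unadjusted p under 0.05 in either direction, and DESeq2 called 349 higher and 281 lower. The median log2 fold change was 0.15, and -0.01 over all genes. The groups did not overlap for Gclc and Slc7a11, both higher, 2 of 10 where 12.4% of all genes were, and for 0 of 10 in the lower direction, against 14.3%.

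Slc7a11 had 117.5, 134.6 and 148.0 CPM in VEGFR3iLECko replicates 1 to 3, beside the 73.8, 100.8 and 87.2 CPM of injured VEGFR3fl/fl. The lowest VEGFR3iLECko library was above the highest injured VEGFR3fl/fl library. The log2 fold change was 0.61 (SE 0.12, Padj = 0.0479 by edgeR), or 1.53-fold. Leaving out 1 library at a time gave log2 fold changes of 0.51 to 0.73, under the 1.5-fold minimum without injured VEGFR3fl/fl replicate 1 (0.51) or VEGFR3iLECko replicate 3 (0.53), and of the 9 libraries only injured VEGFR3fl/fl replicate 2 could be left out without losing the call. Among the libraries low in Y-linked genes, where 1 injured VEGFR3fl/fl library stands against 3, it was 0.62, a value given without a test because the lone library shows no spread of its own. DESeq2 also called it. Its call was lost with the Y-linked covariate, the replicate block, the 6 libraries alone, and upper quartile or library size scaling.

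The other members of glutathione synthesis did not pass. Gclc had 40.4, 48.6 and 42.8 CPM in VEGFR3iLECko against 27.98, 37.9 and 34.4 CPM, a log2 fold change of 0.39 (SE 0.19, Padj = 0.235 by edgeR). Gclm had 65.2, 60.3 and 73.7 CPM, within the range of the injured VEGFR3fl/fl libraries, and a log2 fold change of -0.04 (SE 0.16). The Gclc to Gclm ratio per length was 1.01, 1.32 and 0.947 in VEGFR3iLECko, and its lowest value fell within the injured VEGFR3fl/fl range (two-sided exact permutation test, p = 0.2).

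Nqo1 had 13.7, 15.2 and 12.6 CPM in VEGFR3iLECko, inside the spread of the injured VEGFR3fl/fl libraries, with a log2 fold change of 0.05 (SE 0.14). Gsr had 117.1, 106.6 and 134.9 CPM and a log2 fold change of 0.14 (SE 0.12). Their ratio of counts was 8.56, 7.00 and 10.8 (two-sided exact permutation test against injured VEGFR3fl/fl, p = 0.8). Srxn1 was tightly grouped at 84.0, 83.3 and 80.9 CPM, between the lowest and the other 2 injured VEGFR3fl/fl libraries, with a log2 fold change of -0.27 (SE 0.13). Txnrd1 had 193.6, 184.5 and 187.3 CPM and a log2 fold change of 0.16 (SE 0.09).

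Sod2 had 111.2, 108.3 and 147.9 CPM in VEGFR3iLECko and a log2 fold change of 0.30 (SE 0.14). Sod3 had 365.0, 372.2 and 367.9 CPM, all between the highest and the other 2 injured VEGFR3fl/fl libraries, and a log2 fold change of -0.19 (SE 0.32). Without injured VEGFR3fl/fl replicate 1 it was 0.38. Gpx3 had 7493, 4719 and 3601 CPM, with the groups overlapping, and a log2 fold change of 0.51 (SE 0.32). Over the 9 genes that did not pass, Padj lay between 0.229 and 0.894 by edgeR, and the standard errors of 0.09 to 0.32 set what could be seen.

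**Figure D4:**
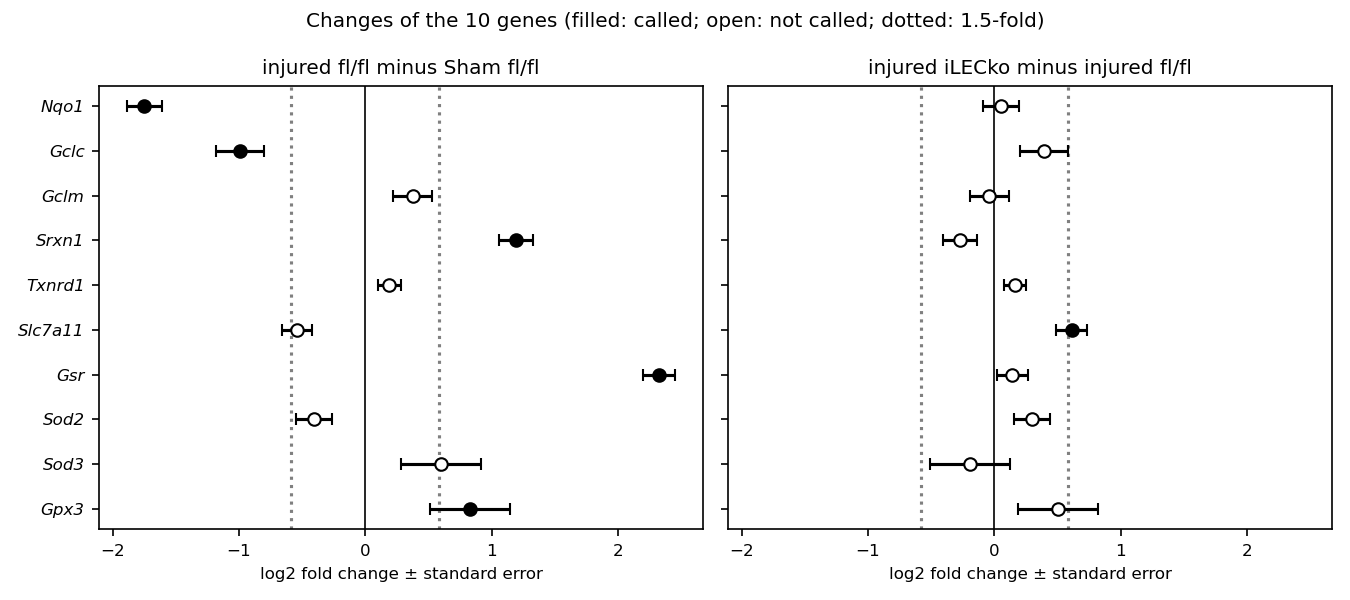
Log2 fold change (horizontal axis) with its standard error from edgeR for each of the 10 genes, for injury in VEGFR3fl/fl irises (left) and for VEGFR3iLECko against VEGFR3fl/fl among injured irises (right), with filled points for DEGs and dotted lines at 1.5-fold. Points spread from -1.75 (Nqo1) to 2.32 (Gsr) on the left and from -0.27 (Srxn1) to 0.61 (Slc7a11) on the right.

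In the same comparison, 0 of the 12 NRF2 regulators passed in either direction (edgeR; 3 higher and 0 lower at an unadjusted p under 0.05; 0 by DESeq2). For this and the other lists here, 0.573% of all genes tested were upregulated and 0.466% downregulated by edgeR. An unadjusted p under 0.05 was reached by 3674 of the 15010 genes tested, both directions together. DESeq2 called 349 of all genes higher and 281 lower. Nfe2l2 had a log2 fold change of -0.11 (Padj = 0.398 by edgeR), Keap1 of -0.13 (Padj = 0.318) and Bach1 of 0.30 (Padj = 0.107). Of the 28 other targets 0 were upregulated (edgeR; 4 higher and 10 lower at an unadjusted p under 0.05; 0 higher by DESeq2) and 1 was downregulated, Blvrb, a biliverdin reductase (log2 fold change -0.86, Padj = 0.0496 by edgeR), where DESeq2 called 4. Blvrb had 52.8, 52.8 and 52.3 CPM in VEGFR3iLECko and 126.5, 89.5 and 71.1 CPM in injured VEGFR3fl/fl, and its log2 fold change was -0.44 (Padj = 0.468) with the Y-linked level as a covariate. Its call was lost with any library left out other than injured VEGFR3fl/fl replicates 1 and 3. It was also lost with RLE scaling, with library size alone, with no filter on low counts, with the replicate block and with the 6 libraries alone. Hmox1 had 446.1, 264.0 and 927.2 CPM in VEGFR3iLECko, inside the range of the other injured group, and a log2 fold change of -0.41 (SE 0.78, Padj = 0.774 by edgeR). It was 1.37 without injured VEGFR3fl/fl replicate 2 and -1.02 without VEGFR3iLECko replicate 3, so its direction rested on single libraries.

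Of the 12 genes for removal of superoxide and peroxide, 0 were upregulated (edgeR; 1 higher and 4 lower at an unadjusted p under 0.05; 0 higher by DESeq2) and 1 was downregulated, Selenop, a secreted selenium carrier. It had 1142, 907.2 and 880.1 CPM in VEGFR3iLECko and 1490, 1783 and 1496 CPM in injured VEGFR3fl/fl, a log2 fold change of -0.70 (Padj = 0.0417 by edgeR). The groups did not overlap, and the call was kept without injured VEGFR3fl/fl replicate 1 or 3 and lost with any other library left out. It was also lost with the Y-linked covariate, with scaling by library size alone, with the replicate block and with the 6 libraries alone. In glutathione handling 0 of 22 passed (1 higher and 3 lower at an unadjusted p under 0.05, and 0 by DESeq2). In the thioredoxin list 0 of 14 passed (0 higher and 6 lower unadjusted, and 2 lower by DESeq2). Among oxidant producing enzymes 0 of 10 passed (1 higher and 6 lower unadjusted, and 2 lower by DESeq2). Over all 15010 genes tested, 3674 had an unadjusted p under 0.05 in either direction, and DESeq2 called 349 higher and 281 lower. Summed macrophage markers were lower, at 8183 to 10160 CPM in VEGFR3iLECko against 12770 to 21220 CPM in injured VEGFR3fl/fl, with 6 of 11 downregulated. Lyz2 alone made up 6154 to 7942 CPM and 9118 to 17620 CPM of these sums. The part of the macrophage markers in the values of these lists was not tested. Neutrophil markers summed to 403.1 to 1331 CPM, with 0 of 5 tested passing (edgeR; 2 higher at an unadjusted p under 0.05).

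Injured VEGFR3iLECko irises were compared with Sham VEGFR3fl/fl irises last, a contrast in which injury and genotype both differ and which shares its libraries with the first 2. Gsr, Srxn1 and Gpx3 were upregulated, 3 of 10 beside 19.7% of all genes tested, and Nqo1 and Gclc downregulated, 2 of 10 beside 15.0%. The log2 fold changes were 2.47 for Gsr, 0.92 for Srxn1, 1.33 for Gpx3, -1.70 for Nqo1 and -0.60 for Gclc. Gpx3 did not overlap with Sham here, and its Padj was 0.00646 by edgeR, or 0.113 with the Y-linked level as a covariate. The Gclc call (Padj = 0.0238 by edgeR) was lost without Sham replicate 1 or 3 and without VEGFR3iLECko replicate 1 or 3 (0.0592 to 0.0935). Txnrd1 passed the p threshold with a log2 fold change of 0.35 (Padj = 0.00849 by edgeR) under the 1.5-fold minimum. Slc7a11, with a log2 fold change of 0.07 (SE 0.12), lay near its Sham level in VEGFR3iLECko. The groups did not overlap for 6 genes that were higher (Gclm, Srxn1, Txnrd1, Gsr, Sod3 and Gpx3), where 33.3% of all genes were, and for 1 that was lower, Nqo1, against 33.2%.

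Levels were compared between genes as approximate TPM, counts per length of the longest transcript, since CPM favors long transcripts. In Sham irises Gpx3 was highest at 3792 ± 597 TPM (SD, n = 3), followed by Sod3 (216 ± 25.7), Txnrd1 (118 ± 9.40), Nqo1 (83.1 ± 5.69), Sod2 (65.0 ± 0.924), Gclc (56.3 ± 16.3), Srxn1 (44.9 ± 3.11), Slc7a11 (39.8 ± 2.71), Gclm (27.3 ± 2.77) and Gsr (23.3 ± 1.30). The libraries of Sod2 and Gclc, Gclc and Srxn1, Srxn1 and Slc7a11, and Gclm and Gsr overlapped, so those neighbors were not separated. In injured VEGFR3fl/fl irises Gsr ranked next after Txnrd1 at 95.8 ± 20.1 TPM, overlapping with Txnrd1 above it and Srxn1 below it, and Nqo1 stood last at 20.1 ± 3.82 TPM, overlapping with Slc7a11, Gclc and Gclm. In VEGFR3iLECko irises Gpx3 (8561 ± 3027 TPM), Sod3 (257 ± 10.8), Txnrd1 (135 ± 1.29) and Gsr (116 ± 13.1) led without overlap, and Nqo1 was again last at 23.2 ± 2.81 TPM.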

How the data were processed

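The authors filtered single-end reads of 50 bases from poly(A) libraries (BGISEQ-500), aligned them with HISAT2 2.0.4 and Bowtie2 2.2.5 per the submitters' processing notes, which name mm10, and deposited estimated counts per gene, not normalized. In each library 9.83% to 10.3% of the values were not whole. The counting program, annotation and use of strand are not given in the sources used here, and the study's own TPM filter was not applied. Groups came from titles and treatments. The genotype tags of VEGFR3iLECko replicates 2 and 3 name other VEGFR numbers and were not followed. A combined table with the same values and group averages was not used.

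Counts were rounded, filtered by filterByExpr and scaled by TMM in edgeR 4.0.16 (R 4.3.3). All 9 libraries were fitted with group as the only term, by the quasi-likelihood test with Benjamini-Hochberg adjustment; standard errors came from the F statistic. The labels do not name the animals behind each library, so p-values measure the spread between pooled libraries. Replicates differed by more than counting noise (chi-square per degree of freedom 5.13 to 76.2). The 10 genes and the lists were chosen with earlier results of these data known. All members were named, and of each list every DEG if 6 or fewer, otherwise the 3 largest in each direction, with Nfe2l2, Keap1, Bach1 and Hmox1 always; lists were read in the first 2 comparisons. Transcript lengths (GENCODE M21) matched 96.1% of genes, and promoters and positions came from RefSeq GRCm38.p6. Alternatives covered scaling, filter, DESeq2 1.42.0, libraries, thresholds, a replicate block and a Y-linked covariate. The fits were tested on simulated data.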

Additional observations from a re-analysis of the deposited data

How the results depend on the processing

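The counts of DEGs among the 10 genes after injury were within 1.5 times of 3 upregulated and 2 downregulated under each alternative run, except that without a fold minimum 4 were lower. Between the injured groups the count of 1 upregulated gene fell to 0 with upper quartile scaling, with scaling by library size alone and with the 6 libraries alone. It also fell to 0 at an adjusted p under 0.01, with the replicate block and with the Y-linked covariate. With each library left out it ranged from 0 to 1. There Slc7a11 had adjusted p-values of 0.0523 or more by edgeR in the alternatives that lost it at the threshold of 0.05. Its adjusted p was 0.0479 by edgeR where 0.01 was required. For VEGFR3iLECko against Sham, 1 gene was downregulated in place of 2 at an adjusted p under 0.01 and with the Y-linked covariate, and 1 to 2 with each library left out. Members that did not pass changed sign between the injured groups as follows. With the Y-linked covariate the log2 fold change was -0.092 for Nqo1, 0.22 for Gclm, 0.10 for Srxn1 and 0.20 for Sod3. Among the libraries low in Y-linked genes, a set chosen after seeing the data, it was -0.14, 0.25, 0.12 and 0.22. Leaving out VEGFR3iLECko replicate 2 gave -0.025 for Nqo1 and 0.024 for Gclm, and leaving out injured VEGFR3fl/fl replicate 2 gave -0.091 and 0.17. Sod3 was 0.38 without injured VEGFR3fl/fl replicate 1, and Gclm 0.017 with library size alone. Against Sham, Slc7a11 was -0.037 with library size alone and -0.007 without VEGFR3iLECko replicate 3. Dropping any 1 library gave a range of -0.091 to 0.16 for Nqo1, -0.165 to 0.17 for Gclm and -0.464 to 0.38 for Sod3 between the injured groups, and -0.007 to 0.156 for Slc7a11 against Sham. The cause was not tested. Scaling by library size alone moved the median of all genes to -0.16 after injury, and there the change of Gpx3 was 0.65 on the log2 scale (Padj = 0.0883, edgeR). With the Y-linked covariate Gpx3 had an adjusted p of 0.0763 after injury.

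The replicate numbers did not pair the libraries, as same-numbered libraries had correlations of -0.387 to 0.131, 1 of 9 over 0.1, and 6 of 18 correlated best with their own number. With the block Slc7a11 had an adjusted p of 0.0721 by edgeR, 0 of the 10 genes were called between the injured groups, and 24 of all genes in place of 156. That total was 630 by DESeq2, 0 with the 6 libraries alone and 1 at an adjusted p under 0.01. It was 2 with the Y-linked covariate and 0 to 281 with each library left out. Every member had at least 181 counts in each library.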

Other observations

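Aldh3a1, an aldehyde dehydrogenase abundant in corneal epithelium and one of the 28 other NRF2 targets, is named here after its values were seen. It had 8.75, 6.61 and 6.25 CPM in Sham, 116.6, 1.93 and 10.2 CPM in injured VEGFR3fl/fl and 1.69, 1.76 and 2.07 CPM in VEGFR3iLECko replicates 1 to 3. Replicate 1 of the injured VEGFR3fl/fl group stood far above all other libraries, and neither comparison passed (adjusted p = 0.0686 after injury and 0.0858 between the injured groups by edgeR). The same library had the highest level of Sod3 (698.2 CPM) among the 9. Its summed surface epithelium markers were the lowest of the 9, at 0.667 CPM. The fibroblast genes Dcn (4818 CPM), Lum (1929 CPM) and Dpt (7.71 CPM) were each at their highest there. The other fibroblast markers, Col1a1, Col1a2, Col3a1 and Pdgfra, were not, and Col3a1 (3797 CPM) was at its lowest among the injured libraries. Of the lymphatic markers, Ccl21a (92.4 CPM), Prox1 and Pdpn were at their highest there. Lyve1 (0.303 CPM) was at its lowest of the 9, and Flt4 and Reln were not at their highest. What these genes have to do with Aldh3a1 or Sod3 was not tested.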
